A study of Mus musculus with 28 samples.

Results

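Costimulation of T cells was followed through 10 genes, all of which are among the 24089 genes of the RNA-seq table. They form a list of names that was chosen with earlier results of these data known, though not by a threshold on their values. The list holds the receptors *Cd28* and *Icos*, the TNF receptor superfamily members *Cd27*, *Tnfrsf4* (OX40), *Tnfrsf9* (4-1BB) and *Tnfrsf18* (GITR), and the ligands *Cd40lg*, *Tnfsf8* (CD30 ligand), *Tnfsf11* (RANKL) and *Tnfsf14* (LIGHT). All 10 passed the filter on low values in every comparison. Naïve CD4+ CD62L+ T cells from spleen and lymph nodes came from adult C57BL/6-background mice. The labels of the DNase-seq libraries name oil for WT and tamoxifen for KO. In its *Il9* assay, the paper describes these treatments for mice with both *Tgfbr1* alleles floxed and the tamoxifen-inducible Ert2-cre transgene. There, both WT and KO mice carried the transgene. The RNA-seq labels give only WT or KO, and the paper also lists floxed mice with Cd4-cre. The inducible line and its treatments are assumed here for the RNA-seq libraries. The groups then differ by the drug as well as by the loss of TGF-β receptor I, and the inducible Cre is not limited to T cells. The labels number the libraries of each genotype from 1 to 3. Each number is read here as 1 mouse, which the sources used here do not state. Cells of these 3 WT and 3 KO mice were stimulated through anti-CD3 and anti-CD28. They received medium as control, a single cytokine (TGF-β or IL-4) or both, which gave 24 RNA-seq libraries, 3 for each of 8 cultures. The DNase-seq experiment had 1 library per genotype for the control and 1 for the culture with both cytokines. The length of the RNA cultures is not given in the sources used here.

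A naïve T cell needs a signal through its antigen receptor and a costimulatory signal, which CD28 gives when it meets B7 molecules on an antigen-presenting cell. Activation then brings ICOS and several TNF receptors to the surface, and these recruit TRAF proteins to sustain survival and cytokine production. Activated CD4+ T cells also carry ligands of the TNF superfamily, such as CD40 ligand, through which they act on B cells, dendritic cells and other partners. TGF-β with IL-4 directs naïve CD4+ T cells toward Th9 cells, which make IL-9. Because anti-CD28 antibody was in every culture, *Cd28* here encodes the receptor through which all cells were stimulated.

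Which column of the RNA-seq table holds which library had to be settled first. The headings of the 24 columns conflict with read counts that the study lists for 8 WT libraries: by which genes were at 0, all 8 libraries matched the column at their place in library-number order, with an agreement of at least 99.8% of genes against at most 85.8% for any other column, whereas only 2 of the 8 matched the column headed with their name. Columns were therefore read by position, each block of 4 being the control, TGF-β, IL-4 and double-cytokine cultures of 1 mouse, and 4 of 24 headings are the same under this reading. The other 4 WT and all 12 KO columns were not in those counts, so the cultures of the KO columns rest on position alone. Genotype is the same under both readings. Results with the columns as headed, and for the WT comparisons with the 8 identified libraries alone, are given where they bear on a count.

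The values are RPKM, reads scaled by the length of the gene and the size of the library. Levels are set side by side between genes and between cultures within the limits of that scaling, and a further scaling by median ratios was an alternative. Differences are log2 fold changes of RPKM + 1 with their SE, tested by limma over all genes whose mean RPKM reached 1. A gene counted as called when its adjusted p was below 0.01 and it differed by more than 1.5-fold. Values are mean ± SD over n = 3 mice unless single libraries are given. *Tgfbr1* itself was between 13.9 and 14.5 RPKM with TGF-β and between 17.6 and 20.7 RPKM with TGF-β + IL-4 in WT, and between 2.32 and 5.18 RPKM in all 12 KO libraries. In control cultures it was at 3.20 ± 0.15 RPKM in WT and 2.64 ± 0.37 RPKM in KO, and whole-gene RPKM do not show whether the floxed part was lost. *Il9*, the defining cytokine gene of Th9 cells, was between 8.15 and 10.9 RPKM in WT control, between 40.1 and 45.9 RPKM with TGF-β, between 13.03 and 17.4 RPKM with IL-4 and between 33.6 and 36.1 RPKM with both, so all libraries with TGF-β alone lay above those with both cytokines, and it was at most 2.72 RPKM in KO. The T cell markers *Cd3e* (213 to 360 RPKM) and *Cd4* (75.6 to 122 RPKM) were high in every library, the myeloid markers *Cd14* and *Csf1r* were at most 0.547 RPKM, another, *Lyz2*, was between 0.111 and 16.7 RPKM, and *Cd8b1* was between 11.0 and 30.4 RPKM. Of the 5 B cell markers *Cd74* was the highest, between 52.5 and 254 RPKM, and *Ms4a1* was between 0.533 and 3.34 RPKM. In bulk samples, fewer cells of a type and less RNA per cell cannot be told apart.

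The levels of the 10 genes covered a wide range. *Tnfrsf4* was the most abundant, with a median of 500.0 RPKM over the 24 libraries, followed by *Tnfrsf18* with 213 RPKM and *Tnfrsf9* with 133 RPKM. *Cd27*, *Icos* and *Cd28* had medians of 45.4, 43.2 and 40.5 RPKM, and the 4 ligands were lower, from 27.3 RPKM for *Tnfsf8* to 16.7 RPKM for *Tnfsf14*. The ligands *Tnfsf8* and *Tnfsf11* varied most, with a highest library at 9.32 and 5.55 times the lowest, whereas *Tnfsf14* varied least, at 1.74 times. The lowest library was a WT TGF-β library for 5 of the 10 genes, *Cd28*, *Cd40lg*, *Tnfsf8*, *Tnfsf11* and *Tnfsf14*.

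**Figure D1:**
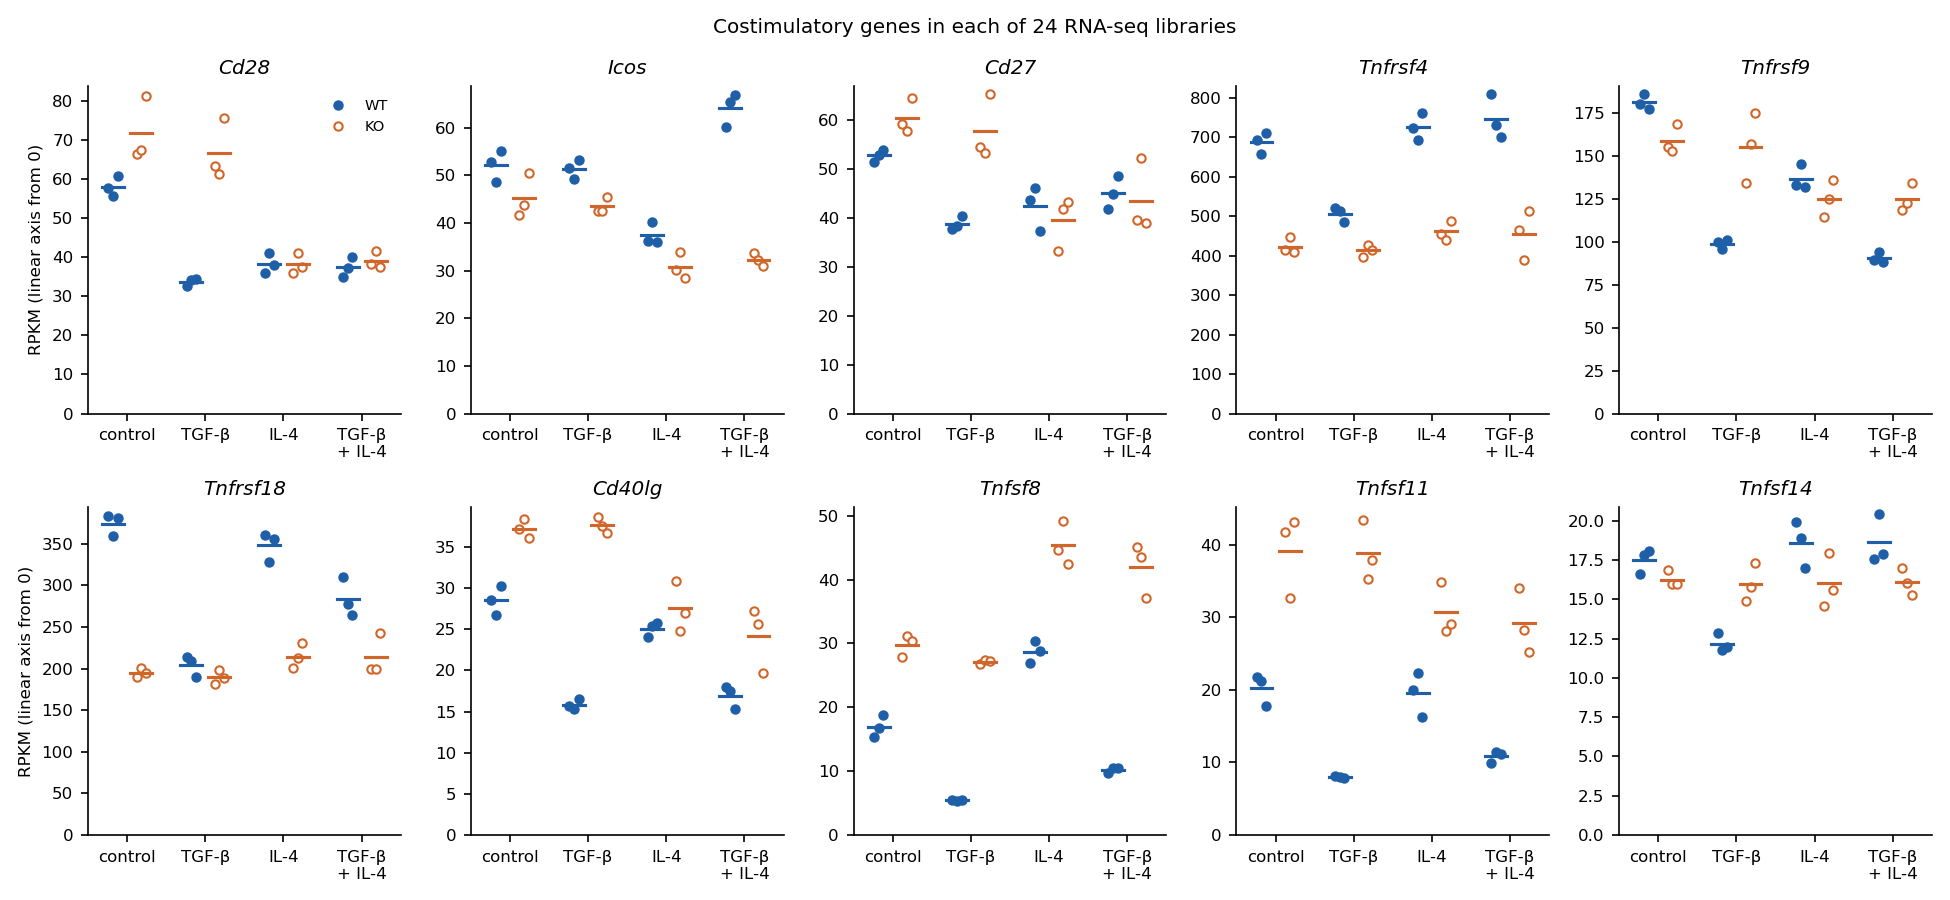
RPKM of each gene (linear axes from 0) in the 24 RNA-seq libraries by culture, with WT as filled and KO as open points, 1 point per mouse, and lines at the group means. With TGF-β, *Tnfsf8* lies between 5.27 and 5.55 RPKM in WT and between 26.7 and 27.4 RPKM in KO.

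TGF-β alone lowered 6 of the 10 genes in WT cells and raised none. The 6 were *Cd28*, 2 of the 4 TNF receptors and 3 of the 4 ligands, and the median log2 fold change of the 10 genes was −0.79 against 0.01 over all genes tested. Over all genes tested, 2.28% were called lower with TGF-β.

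Of the receptors, *Cd28* was at 57.7, 55.7 and 60.7 RPKM in the 3 WT control libraries and at 32.6, 34.2 and 34.5 RPKM with TGF-β. The groups did not overlap, and *Cd28* fell by 0.76 ± 0.05 on the log2 scale (adjusted p = 3.45e-05). *Icos*, the CD28 relative that supports T cell help to B cells, was at 52.2 ± 3.3 and 51.3 ± 2.0 RPKM, a log2 difference of −0.02 ± 0.06 (adjusted p = 0.84).

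*Tnfrsf9*, a receptor that costimulates activated T cells, was at 180, 186 and 177 RPKM in control and at 99.9, 95.6 and 101 RPKM with TGF-β. It fell by 0.87 ± 0.04 on the log2 scale (adjusted p = 7.81e-06). *Tnfrsf18*, which costimulates effector cells and is also abundant on regulatory T cells, was at 384, 359 and 381 RPKM in control and at 214, 209 and 190 RPKM with TGF-β. Its fall was of the same size, by 0.87 ± 0.06 on the log2 scale (adjusted p = 3.45e-05). *Cd27*, the receptor of CD70, and *Tnfrsf4* had log2 differences of −0.43 ± 0.05 and −0.44 ± 0.05, past the p threshold (adjusted p = 0.00045 and 0.00062) but under the 1.5-fold limit. All 3 TGF-β libraries lay below all 3 control libraries for 9 of the 10 genes, these included and *Icos* excepted, as they did for 17.3% of all genes tested.

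Of the 10 genes, the ligands *Tnfsf8* and *Tnfsf11* had the largest changes. *Tnfsf8*, the ligand of CD30, was at 15.4, 16.8 and 18.8 RPKM in control and at 5.44, 5.27 and 5.55 RPKM with TGF-β, a fall by 1.48 ± 0.08 on the log2 scale (adjusted p = 1.17e-05). *Tnfsf11*, the ligand of RANK and best known for driving osteoclast formation, was at 21.7, 21.2 and 17.7 RPKM in control and at 8.17, 8.04 and 7.82 RPKM with TGF-β. It fell by 1.23 ± 0.08 on the log2 scale (adjusted p = 3.5e-05). *Cd40lg*, through which helper T cells license B cells and dendritic cells, was at 28.6, 26.7 and 30.3 RPKM in control and at 15.6, 15.3 and 16.5 RPKM with TGF-β. It fell by 0.81 ± 0.06 on the log2 scale (adjusted p = 6.81e-05). *Tnfsf14*, a ligand of HVEM, was at 17.5 ± 0.8 and 12.2 ± 0.6 RPKM, a log2 difference of −0.49 ± 0.06 that passed the p threshold (adjusted p = 0.00091) and not the fold limit. The same 6 calls were made with the 8 identified libraries alone, and none was made with the columns as headed. The summed level of the regulatory T cell markers moved in the same comparison, from between 66.1 and 77.7 RPKM in control to between 158 and 172 RPKM with TGF-β, with 2 of 4 tested markers higher, *Foxp3* from 5.70 ± 0.45 to 64.3 ± 8.2 RPKM and *Lrrc32* from 1.49 ± 0.07 to 4.50 ± 0.29 RPKM. The summed level of the NK cell markers moved from between 5.75 and 7.96 RPKM to between 1.25 and 1.32 RPKM, with *Eomes* the 1 tested of 4. *Cd8b1*, 1 of 2 CD8 T cell markers, fell from 20.2 ± 0.9 to 11.6 ± 0.6 RPKM, and none of the 5 B cell and 7 T cell markers was called by limma. *Lyz2* was between 5.11 and 16.7 RPKM with TGF-β and between 3.06 and 5.35 RPKM in control. The part of these cells in the results was not tested.

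IL-4 alone raised 1 of the 10 genes in WT, *Tnfsf8*, against 0.93% of all genes tested called higher. *Tnfsf8* was at 27.0, 30.4 and 28.8 RPKM with IL-4, above all control libraries, a log2 fold change of 0.73 ± 0.08 (adjusted p = 0.0014). The call was lost with the identified libraries alone, which are those of mice 1 and 3 (0.68, adjusted p = 0.021), without mouse 1 (0.70, adjusted p = 0.032) and without a filter on low values (adjusted p = 0.011). *Cd28* was at 38.4 ± 2.7 RPKM with IL-4, a log2 difference of −0.58 ± 0.06 (adjusted p = 0.0012) just under the fold limit, and it was called with the identified libraries alone (−0.66, adjusted p = 0.0048). *Icos* at 37.5 ± 2.3 RPKM and *Tnfrsf9* at 137 ± 7 RPKM also had adjusted p below the threshold (0.0057 and 0.0033), with log2 differences of −0.46 ± 0.07 and −0.40 ± 0.05 under the fold limit. *Tnfrsf4*, *Tnfrsf18*, *Tnfsf11* and *Tnfsf14* in IL-4 cultures overlapped with control. *Foxp3* fell in the same comparison, from 5.70 ± 0.45 to 1.92 ± 0.07 RPKM (log2 −1.20 ± 0.07, adjusted p = 0.00011), and its part in these values was not tested.

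With TGF-β + IL-4, 5 of the 10 genes fell against WT control and none was called higher, where 2.84% of all genes tested were called lower. *Tnfrsf9* was at 89.1, 93.7 and 87.9 RPKM and fell by 1.00 ± 0.05 on the log2 scale (adjusted p = 7.28e-07). *Tnfsf11* was at 9.90, 11.5 and 11.1 RPKM and fell by 0.84 ± 0.09 (adjusted p = 9.03e-05). *Cd40lg* was at 17.98, 17.5 and 15.3 RPKM and fell by 0.72 ± 0.07 (adjusted p = 8.2e-05). *Tnfsf8* was at 9.76, 10.5 and 10.5 RPKM and fell by 0.68 ± 0.08 (adjusted p = 0.00015), between its levels in control and with TGF-β alone. *Cd28* was at 35.0, 37.3 and 40.0 RPKM and fell by 0.62 ± 0.06 (adjusted p = 6.34e-05), and without mouse 1 the fold was under the limit (−0.58). The same 5 genes were called with the identified libraries alone, and none with the columns as headed. *Icos* stood apart, at 60.1, 65.4 and 66.9 RPKM against 48.6 to 55.0 RPKM in control, a log2 difference of 0.29 ± 0.06 (adjusted p = 0.0049) under the fold limit. *Tnfrsf18* was at 284 ± 24 RPKM, a log2 difference of −0.40 ± 0.06 (adjusted p = 0.0012) under the fold limit, and *Tnfrsf4*, at 747 ± 55 RPKM, and *Tnfsf14*, at 18.6 ± 1.5 RPKM, overlapped with control. *Foxp3* was at 33.7 ± 2.0 RPKM in this culture, and *Lrrc32* was also called higher than in control, at 4.84 ± 0.39 RPKM. Of the 5 B cell markers 1 was called, *Cd79b*, which rose from 5.61 ± 1.18 to 12.8 ± 3.6 RPKM. The median log2 fold change of the 5 was 0.058. Of 2 tested NK cell markers 1 was called, *Eomes*, which fell from 4.46 ± 1.18 to 1.28 ± 0.24 RPKM. The part of these cells in the values was not tested.

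TGF-β + IL-4 was also set against each cytokine alone. Against TGF-β, *Tnfsf8* alone was called, higher by 0.81 ± 0.07 on the log2 scale (adjusted p = 7.27e-05), where 2.53% of all genes tested were called higher. Against IL-4, 4 genes were called, where 9.28% of all genes tested were called in either direction. *Icos* was higher with both cytokines than with IL-4 by 0.76 ± 0.06 (adjusted p = 1.77e-05), at 60.1 to 66.9 RPKM against 36.1 to 40.2 RPKM. *Tnfsf8* fell by 1.40 ± 0.06 (adjusted p = 5.53e-07), from 28.7 ± 1.7 to 10.2 ± 0.4 RPKM, *Tnfsf11* fell by 0.78 ± 0.11 (adjusted p = 0.00034) and *Tnfrsf9* fell by 0.59 ± 0.05 (adjusted p = 2.61e-05). *Tnfrsf9* was just under the fold limit without mouse 2 (−0.58), a fit that uses the identified libraries alone. *Tnfsf11* was not called without mouse 1 (−0.71, adjusted p = 0.012).

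The joint effect of the cytokines differed from the sum of the single effects for *Cd28* and *Icos*. This interaction was called for these 2 genes, both with a positive term, where 1.42% of all genes tested had a positive call. For *Icos*, the change with both cytokines exceeded the sum by 0.78 ± 0.09 on the log2 scale (adjusted p = 3e-04). For *Cd28*, TGF-β and IL-4 each gave lower values alone, and their combination gave no further decrease, an excess over the sum of 0.73 ± 0.09 (adjusted p = 0.00047). Both were also called with the identified libraries alone (0.84 for *Icos* and 0.82 for *Cd28*). Without mouse 1 or without mouse 3, neither was called (adjusted p between 0.016 and 0.035). The term for *Tnfsf8* was 0.08 ± 0.10 (adjusted p = 0.65), and its level with both cytokines lay between those with each alone.

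**Figure D2:**
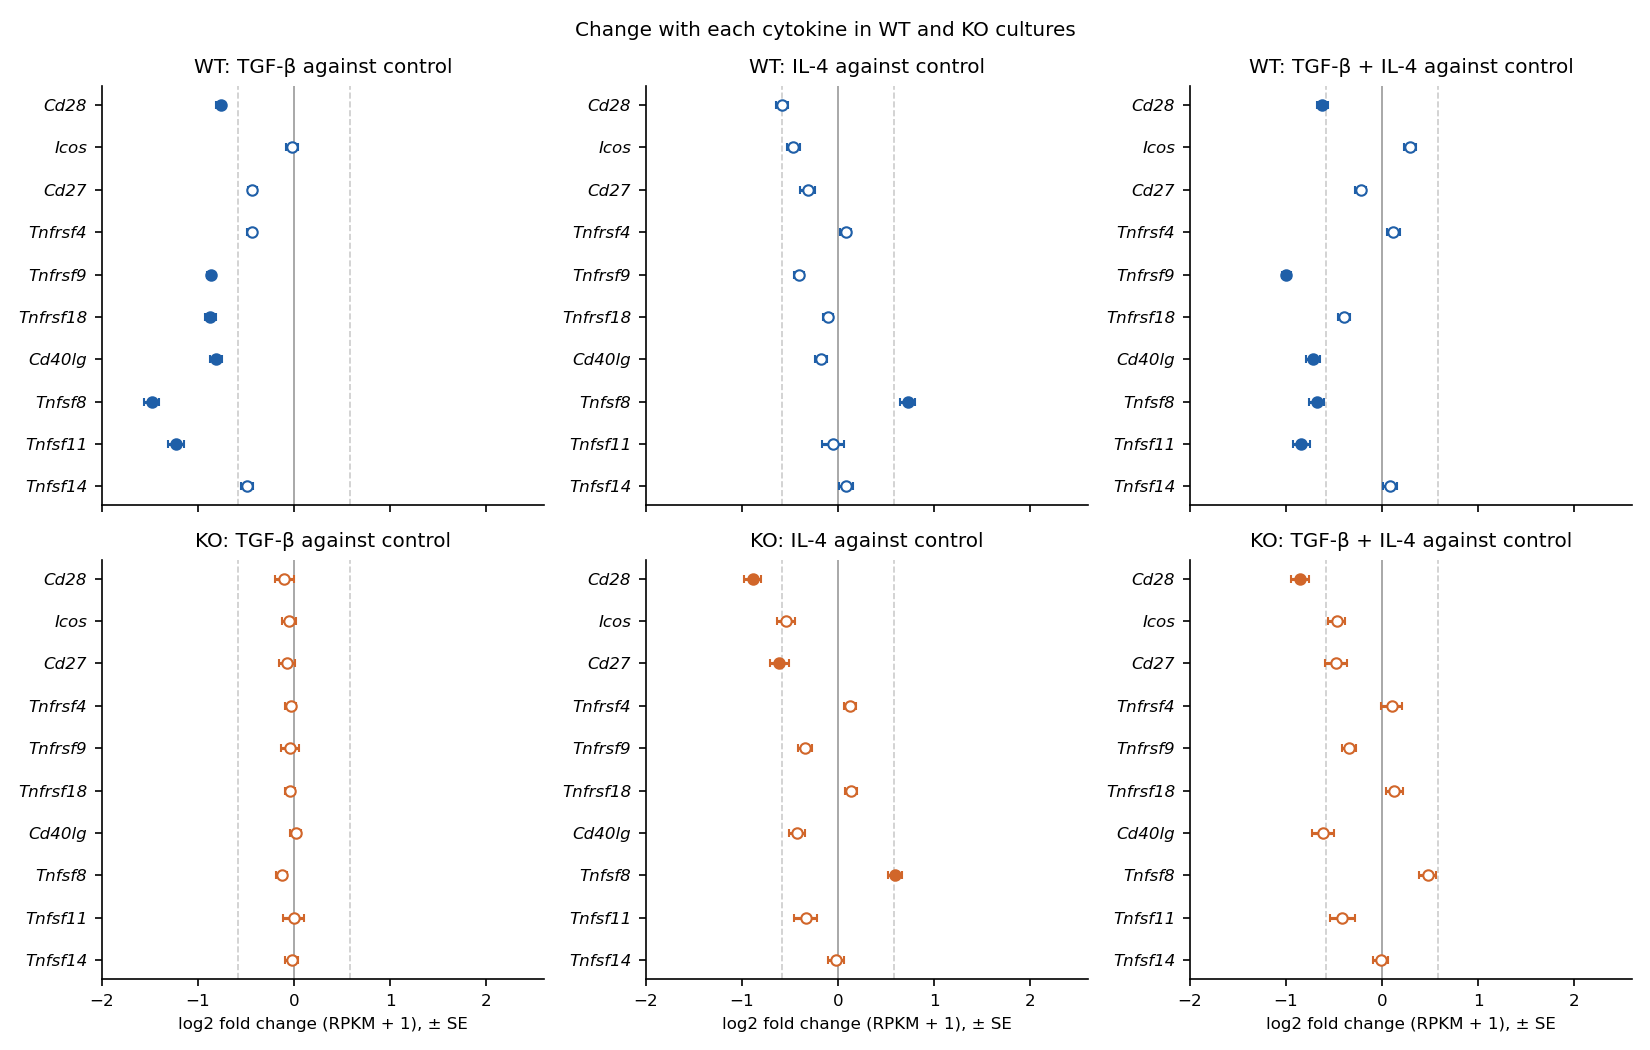
Log2 fold changes of RPKM + 1 against the control culture of the same genotype, ± SE from limma over 3 mice a group, with filled points for called genes and dashed lines at 1.5-fold. With TGF-β, WT values run from −1.48 to −0.02 and KO values from −0.13 to 0.02.

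In KO cells, TGF-β changed none of the 10 genes, and only 0.0105% of all genes tested were called, which was 1 gene, *Foxp3* (1.43 ± 0.06 RPKM in control and 4.21 ± 0.47 RPKM with TGF-β). The log2 differences of the 10 genes were between −0.13 and 0.02, and by limma none had an unadjusted p under 0.05. *Tnfsf8* was at 27.8, 31.1 and 30.3 RPKM in KO control and at 26.7, 27.4 and 27.2 RPKM with TGF-β, lower in all 3 libraries by less than the 1.5-fold limit (log2 −0.13 ± 0.06). *Tnfsf11* was at 41.7, 32.6 and 43.1 RPKM and at 43.3, 35.3 and 37.9 RPKM, and its groups overlapped.

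IL-4 changed 3 of the 10 genes in KO, where 2.51% of all genes tested were called in either direction. *Cd28* fell by 0.89 ± 0.09 on the log2 scale (adjusted p = 0.00029), from 66.6, 67.4 and 81.5 RPKM to 36.0, 41.0 and 37.6 RPKM. *Cd27* fell by 0.61 ± 0.10 (adjusted p = 0.0048), from 60.4 ± 3.6 to 39.4 ± 5.4 RPKM, a call that was lost without any 1 of the 3 mice (adjusted p between 0.019 and 0.023) and without a filter on low values (adjusted p = 0.033). *Tnfsf8* rose by 0.59 ± 0.07 (adjusted p = 0.0011), from 29.8 ± 1.7 to 45.4 ± 3.4 RPKM, and was just short of a call without mouse 1 (0.56, adjusted p = 0.024), without mouse 2 (0.57) and after scaling by median ratios (0.58). Of the CD8 T cell markers, 1 of 2 rose with IL-4 in KO, *Cd8b1* (14.3 ± 1.0 to 24.6 ± 0.1 RPKM). Of 4 tested B cell markers 1 rose, *Cd79b* (4.86 ± 0.90 to 9.02 ± 0.69 RPKM), and the median log2 fold change of the 4 was −0.008. Among 7 T cell markers 1 fell, *Cd5* (431 ± 14 to 262 ± 13 RPKM). Among 3 tested regulatory T cell markers 1 fell, *Foxp3* (1.43 ± 0.06 to 0.611 ± 0.069 RPKM). The part of these cells was not tested. With TGF-β + IL-4, *Cd28* was the single gene called in KO, where 0.642% of all genes tested were called lower. It fell by 0.85 ± 0.09 (adjusted p = 0.0013), to 38.4, 41.5 and 37.5 RPKM. It was not called with the mouse as a block (adjusted p = 0.011), without mouse 1 (adjusted p = 0.036) or without mouse 3 (adjusted p = 0.024). Without mouse 2, *Cd27* was also called lower (−0.65, adjusted p = 0.0040), its libraries being at 39.4, 52.2 and 38.8 RPKM. With all 24 libraries in one fit, *Cd40lg* was also called lower (−0.61). Here 1 of 2 CD8 T cell and 1 of 5 B cell markers were called higher and 1 of 7 T cell markers lower. The part of these cells was not tested.

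The response to TGF-β differed between the genotypes for 6 of the 10 genes, tested as the interaction of genotype and TGF-β, where 1.86% of all genes tested had a positive call. The 6 were those that fell with TGF-β in WT. The difference between the genotypes was 1.35 ± 0.10 on the log2 scale for *Tnfsf8* (adjusted p = 1.31e-06) and 1.23 ± 0.15 for *Tnfsf11* (adjusted p = 0.00015). It was 0.83 ± 0.08 for *Tnfrsf18* (adjusted p = 1.25e-05), 0.83 ± 0.08 for *Cd40lg* (adjusted p = 1.42e-05), 0.83 ± 0.11 for *Tnfrsf9* (adjusted p = 0.00025) and 0.66 ± 0.12 for *Cd28* (adjusted p = 0.0031). The call for *Cd28* was lost without WT mouse 1, 2 or 3 or without KO mouse 1 (adjusted p between 0.012 and 0.028). These terms and the comparisons of KO with WT share libraries with the WT comparisons above. The response to IL-4 differed between the genotypes for none of the 10 genes, with 0.0414% of all genes tested called in either direction. By limma 4 of the 10 had an unadjusted p under 0.05 there, and the terms lay between −0.30 and 0.24.

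For the response to TGF-β + IL-4, 3 of the 10 genes differed between the genotypes, where 4.18% of all genes tested were called in either direction. The term was −0.77 ± 0.11 for *Icos* (adjusted p = 0.00054), 0.65 ± 0.08 for *Tnfrsf9* (adjusted p = 0.00025) and 1.15 ± 0.12 for *Tnfsf8* (adjusted p = 5.67e-05). *Icos* was at 45.4 ± 4.7 RPKM in KO control and 32.3 ± 1.4 RPKM in KO TGF-β + IL-4, where the WT level with both cytokines was 64.1 ± 3.5 RPKM. *Tnfsf8* was at 29.8 ± 1.7 and 41.9 ± 4.2 RPKM in the 2 KO cultures and at 16.99 ± 1.71 and 10.2 ± 0.4 RPKM in the WT cultures.

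The genotypes already differed in control cultures. There 4 of the 10 genes were called, where 2.46% of all genes tested were called in either direction. The neighbouring receptor genes *Tnfrsf18* and *Tnfrsf4* were lower in KO. *Tnfrsf18* was at 190, 200 and 194 RPKM in KO against 359 to 384 RPKM in WT and fell by 0.94 ± 0.05 on the log2 scale (adjusted p = 4.59e-05). *Tnfrsf4* was at 413, 447 and 408 RPKM against 658 to 710 RPKM and fell by 0.70 ± 0.06 (adjusted p = 0.00031). The ligands *Tnfsf11* and *Tnfsf8* were higher in KO control, by 0.91 ± 0.12 (adjusted p = 0.0021) and by 0.78 ± 0.08 (adjusted p = 0.0008). The call for *Tnfsf11* was lost with the mouse number as a block (adjusted p = 0.014), without KO mouse 1 (0.87, adjusted p = 0.011) and without a filter on low values (adjusted p = 0.014). The B cell markers also differed between the control cultures, with summed levels between 128 and 184 RPKM in WT and between 69.9 and 77.0 RPKM in KO, and 4 of 5 were called lower in KO. *Foxp3* was at 1.43 ± 0.06 RPKM in KO against 5.70 ± 0.45 RPKM in WT, and the myeloid gene *Lyz2* and the CD8 T cell gene *Cd8a* were also called lower in KO. The part of these cells in the 4 differences was not tested.

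With TGF-β, 5 of the 10 genes were higher in KO than in WT and none was lower, where 3.15% of all genes tested were called higher. *Tnfsf11* was at 35.3 to 43.3 RPKM in KO against 7.82 to 8.17 RPKM in WT, a log2 fold change of 2.14 ± 0.08 (adjusted p = 2.98e-07). *Tnfsf8* was at 26.7 to 27.4 RPKM against 5.27 to 5.55 RPKM, a log2 fold change of 2.13 ± 0.06 (adjusted p = 9.69e-08). *Cd40lg* was higher by 1.20 ± 0.05 (adjusted p = 9.14e-07), *Cd28* by 0.96 ± 0.08 (adjusted p = 3.02e-05) and *Tnfrsf9* by 0.64 ± 0.09 (adjusted p = 0.00064), the last under the fold limit without KO mouse 3 (0.55). The difference in *Tnfrsf18* seen in control was not called here (−0.11 ± 0.06, adjusted p = 0.17), with WT cells at 190 to 214 RPKM and KO cells at 182 to 198 RPKM. The summed regulatory T cell markers were between 57.5 and 61.2 RPKM in KO and between 158 and 172 RPKM in WT, with 3 of 4 tested called lower in KO, and the summed NK cell markers were between 5.13 and 5.90 RPKM in KO and between 1.25 and 1.32 RPKM in WT. Of the B cell markers 2 of 5, and of the CD8 T cell markers 1 of 2, were called lower in KO, and the part of these cells in the differences was not tested.

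With IL-4, the same 4 genes as in control were called between the genotypes, where 2.99% of all genes tested were called in either direction. *Tnfrsf18* fell by 0.70 ± 0.06 (adjusted p = 0.00022) and *Tnfrsf4* fell by 0.65 ± 0.06 (adjusted p = 0.00022) in KO against WT. *Tnfsf8* was higher in KO by 0.64 ± 0.07 (adjusted p = 4e-04) and *Tnfsf11* by 0.63 ± 0.11 (adjusted p = 0.0074). *Tnfsf8* was just under the fold limit without KO mouse 2 (0.58). The call for *Tnfsf11* was lost with the mouse number as a block (adjusted p = 0.016), without a filter on low values (adjusted p = 0.045), and without WT mouse 1 or 3 or any 1 KO mouse (adjusted p between 0.013 and 0.029). With TGF-β + IL-4, *Icos* fell by 0.97 ± 0.06 (adjusted p = 3.1e-05) and *Tnfrsf4* fell by 0.72 ± 0.11 (adjusted p = 0.0017) in KO, whereas *Tnfsf8* and *Tnfsf11* were higher by 1.93 ± 0.08 (adjusted p = 3.73e-06) and 1.34 ± 0.11 (adjusted p = 0.00011). In this culture 8.44% of all genes tested were called in either direction, and *Tnfrsf4* was not called without WT mouse 1 (−0.66, adjusted p = 0.010). The summed regulatory T cell markers were between 50.8 and 52.5 RPKM in KO and between 106 and 115 RPKM in WT in this culture. Of 2 CD8 T cell markers *Cd8a* (2.44 ± 1.25 against 8.49 ± 0.37 RPKM) was also called lower in KO. Of 7 T cell markers *Lck* (288 ± 31 against 448 ± 13 RPKM) was the 1 called, lower in KO. The NK cell markers *Eomes* (3.22 ± 0.12 against 1.28 ± 0.24 RPKM) and *Ncr1* (2.59 ± 0.46 against 1.14 ± 0.21 RPKM) were called higher, and no B cell marker was called. The part of these cells in the differences was not tested.

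**Figure D3:**
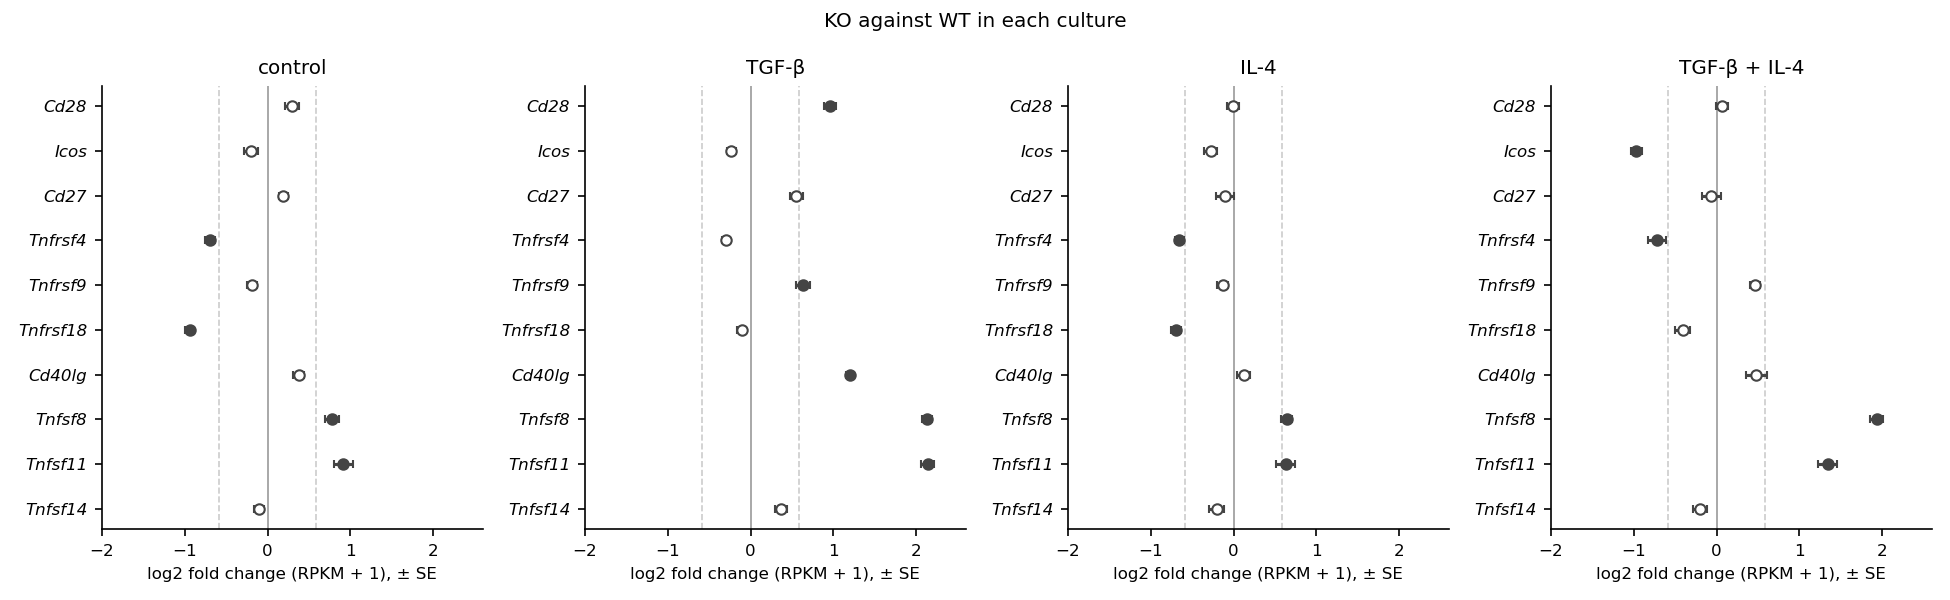
Log2 fold changes of RPKM + 1 of KO against WT in each of the 4 cultures, ± SE from limma over 3 mice a group, with filled points for called genes and dashed lines at 1.5-fold. *Tnfsf8* and *Tnfsf11* are filled and to the right in every culture, from 0.63 to 2.14, and *Tnfrsf4* is to the left in every culture, from −0.72 to −0.29.

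The range over all 12 columns of a genotype does not depend on which culture a column holds. *Tnfsf11* was between 7.82 and 22.3 RPKM in the 12 WT columns and between 25.2 and 43.3 RPKM in the 12 KO columns, so all KO values lay above all WT values, as they did for 2.05% of 9726 genes. It was the only one of the 10 genes without overlap. *Tnfsf8* was between 5.27 and 30.4 RPKM in WT and between 26.7 and 49.1 RPKM in KO. *Tnfrsf4* was between 485 and 809 RPKM in WT and between 388 and 513 RPKM in KO, and *Tnfrsf18* between 190 and 384 RPKM and between 182 and 243 RPKM.

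Within WT, the order of the cultures was gene-specific. From low to high, *Tnfsf8* ran from TGF-β through both cytokines and control to IL-4, with no overlap between neighbours. *Tnfsf11* also ran from TGF-β to both cytokines, and its highest cultures, IL-4 and control, overlapped. *Tnfrsf9* was lowest with both cytokines, then with TGF-β, IL-4 and control, without overlap. For *Tnfrsf4*, TGF-β was lowest and the other 3 cultures overlapped in sequence. In KO, all neighbouring cultures overlapped for *Tnfrsf4*, *Tnfrsf9*, *Tnfrsf18* and *Tnfsf14*.

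Some of the genes moved alike. Over the 8 culture means, the Pearson correlation of log2(RPKM + 1) between the genes had a median of 0.27 over 45 pairs, with the highest values for *Cd28* and *Cd27* (0.97), *Cd40lg* and *Tnfsf11* (0.93) and *Tnfrsf4* and *Tnfrsf18* (0.91), and the lowest for *Icos* and *Tnfsf8* (−0.82). These 8 points share mice and libraries, and the values are a description. *Tnfrsf4* (chr4:155387952-155390721) and *Tnfrsf18* (chr4:155400273-155403004) lie 9551 bp apart on the plus strand of chromosome 4 in mm9, and *Cd28* (chr1:60773644-60830203) and *Icos* (chr1:61034771-61057164) lie 204567 bp apart on chromosome 1. The correlation between *Cd28* and *Icos* was 0.13. Over the 24 libraries and 9726 genes, the genes whose pattern was most like that of *Tnfsf8* were *Cst7*, *Grap* and *Ddt* (Pearson r = 0.99, 0.99 and 0.98), and for *Tnfsf11* they were *Rilpl2*, *Slamf6* and *Tnfaip8* (0.98, 0.97 and 0.97).

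Other genes of the same families were read from fixed lists. With TGF-β in WT, 4 of 11 other TNF receptors tested rose and 2 fell, where 3.42% of all genes tested were called higher and 2.28% lower. Among them were *Tnfrsf25* (DR3), from 15.7 ± 1.0 to 37.6 ± 0.7 RPKM (log2 1.21 ± 0.06, adjusted p = 6.27e-06), and *Tnfrsf8*, which encodes CD30, the receptor of the *Tnfsf8* product, from 2.84 ± 0.85 to 0.581 ± 0.086 RPKM (log2 −1.26 ± 0.14, adjusted p = 0.00065). *Tnfrsf8* and *Tnfsf8* thus both had lower levels with TGF-β. In KO with TGF-β + IL-4 both were higher than in WT, *Tnfrsf8* at 5.21 ± 1.04 against 1.18 ± 0.19 RPKM (log2 1.498 ± 0.14, adjusted p = 2e-04). Of 8 other TNF ligands tested, 1 rose and 2 fell with TGF-β in WT, to be read against the same 3.42% and 2.28%. *Lta*, lymphotoxin alpha, rose from 174 ± 6 to 329 ± 11 RPKM (log2 0.92 ± 0.05, adjusted p = 9.36e-06), in the direction opposite to *Cd40lg*, *Tnfsf8* and *Tnfsf11*, and *Fasl* fell by 1.07 ± 0.07 (adjusted p = 3.22e-05). With IL-4 in WT, *Lta* fell by 1.11 ± 0.06 (adjusted p = 7.39e-05), and *Ctla4*, the inhibitory relative of *Cd28*, fell by 0.60 ± 0.07 (adjusted p = 0.0018), the only 1 of 6 other CD28 and B7 family genes called, where 0.362% of all genes tested were called lower. *Lta* was at 25.6 ± 2.3 RPKM in KO and 172 ± 9 RPKM in WT with TGF-β + IL-4, a fall by 2.70 ± 0.08 (adjusted p = 3.9e-07), and *Pdcd1*, encoding PD-1, fell by 1.05 ± 0.07 (adjusted p = 2.8e-05). Ligands of the receptors were scarce. Over the 24 libraries *Tnfsf4*, the OX40 ligand, was between 0.887 and 1.94 RPKM, and *Tnfsf9*, the 4-1BB ligand, between 3.17 and 7.81 RPKM. *Tnfsf18*, the GITR ligand, was listed at 0 in every library. *Cd70*, the CD27 ligand, was at most 2.91 RPKM. The B7 genes *Cd86* and *Cd80* were at most 2.37 and 0.282 RPKM, and *Icosl*, the ICOS ligand, at most 0.795 RPKM. These ligands were chosen after their values were seen.

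Downstream of the receptors, 1 of 12 genes of the TRAF and noncanonical NF-κB list rose and 1 fell with TGF-β in WT, where 3.42% of all genes tested were called higher and 2.28% lower. *Traf6*, an adaptor ubiquitin ligase, rose from 14.2 ± 0.5 to 28.4 ± 1.3 RPKM (log2 0.95 ± 0.06, adjusted p = 2.04e-05), and *Traf1*, an adaptor of TNF receptors such as 4-1BB, fell from 73.9 ± 9.0 to 35.6 ± 2.4 RPKM (log2 −1.03 ± 0.09, adjusted p = 0.00018). Of 17 CD28 signalling genes, 2 rose and 1 fell, against the same shares of all genes. *Malt1*, a protease that links CD28 to NF-κB, rose from 10.9 ± 0.2 to 22.8 ± 0.4 RPKM (log2 1.00 ± 0.05, adjusted p = 7.91e-06), and *Nfatc2*, a calcium-regulated transcription factor, rose from 4.43 ± 0.32 to 7.22 ± 1.13 RPKM (log2 0.59 ± 0.11, adjusted p = 0.0070). The list medians were −0.04 and 0.03, against −0.79 for the 10 costimulatory genes and 0.01 for all genes tested.

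DNase-seq shows where chromatin is open, as DNase I hypersensitive sites (DHSs). With 1 library for each of 4 conditions no difference below has a replicate check. Within 10000 bp of the 10 genes lay 74 distinct DHSs, of which 29 were called in all 4 lists, and 2 of the 74 lie near both *Tnfrsf4* and *Tnfrsf18*. The WT control list was the longest, with 44298 DHSs, against 33880 for WT with both cytokines. The KO lists held 33665 DHSs for control and 27145 for both cytokines, and depth is unknown, so a DHS missing from a shorter list may lie under its threshold. Of the 64 DHSs of the 10 genes in the WT control list, 62.5% were also called in WT TGF-β + IL-4, against 68.1% of all DHSs of that list. A DHS within 1000 bp of the gene start was called for 7 of the 10 genes in WT control and 9 with both cytokines, against 47.8% and 46.2% of 22380 protein-coding genes, and for 6 in each KO list, against 46.2% in control and 44.1% with both cytokines. These shares include genes of any expression, whereas the median RPKM of the 10 genes lay at percentiles 83.1 to 99.1 of all genes. Genes of like expression were not compared.

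**Figure D4:**
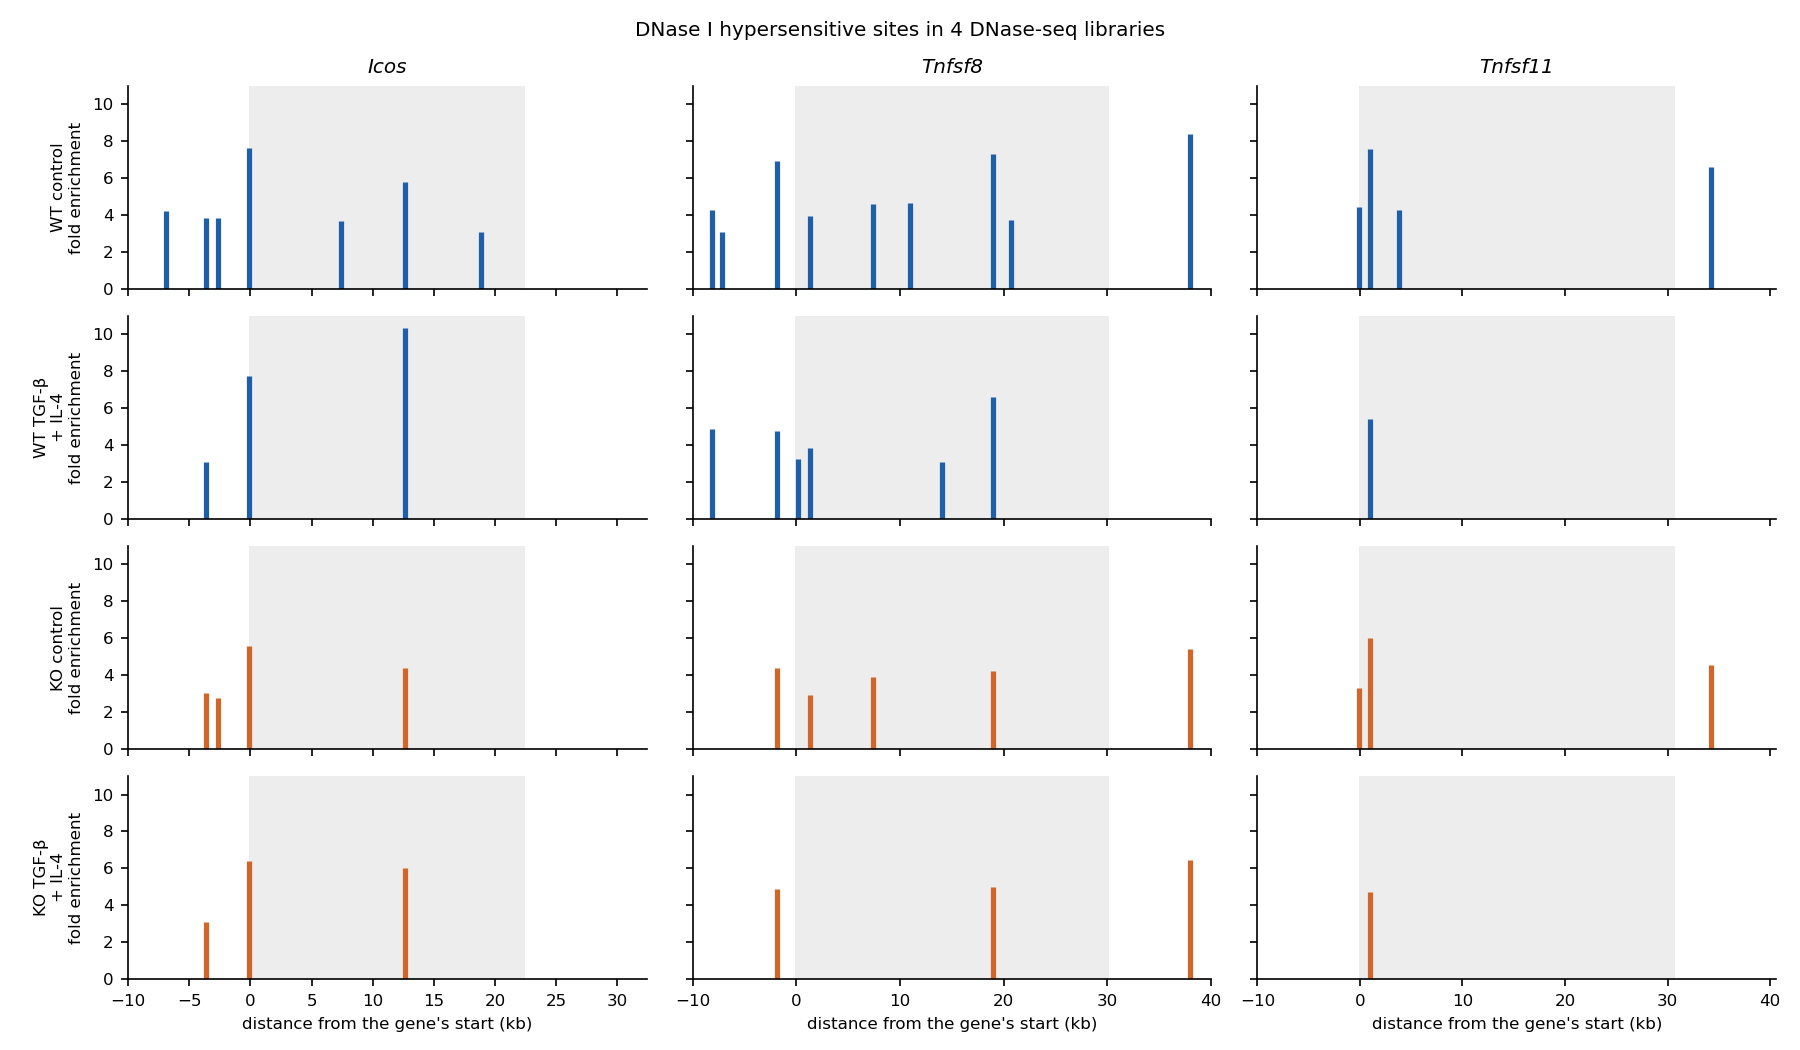
Fold enrichment of each DHS over local background (linear axes from 0) by the distance of its centre from the start of *Icos*, *Tnfsf8* and *Tnfsf11*, in the direction of transcription, with the gene shaded and 1 DNase-seq library per row. The *Icos* DHS at 12609 bp reaches 10.4 in WT TGF-β + IL-4, and the DHS beyond the end of *Tnfsf8* is missing from that list alone.

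Of the 7 DHSs at *Icos*, the highest fold enrichment in WT TGF-β + IL-4 was that of an intronic DHS 12609 bp from the start of the gene (chr1:61046968-61047792, mm9). Its fold enrichment was 10.4 in WT TGF-β + IL-4, among the top 8.25% of that list, and 5.79 in WT control, among the top 47.8%. In KO it was 4.38 in control and 6.01 with TGF-β + IL-4 (top 57.1% and 30.7%). The DHS at the start of *Icos* had fold enrichments of 7.66 and 7.73 in the control and double-cytokine lists of WT and of 5.60 and 6.37 in those of KO, above the intronic DHS in each list but WT TGF-β + IL-4. At *Tnfsf8*, a DHS 37988 bp from the start and beyond the end of the gene (chr4:63484193-63484594) was called in WT control (8.41) and in both KO lists (5.44 in control and 6.43 with both cytokines) and not in WT TGF-β + IL-4. At *Tnfsf11*, a DHS 34286 bp from the start and beyond the end of the gene (chr14:78673401-78673728) was called in WT control (6.58) and KO control (4.55) and in neither TGF-β + IL-4 list. At *Cd40lg*, 5 of its 6 DHSs were called in WT control, 4 in WT with both cytokines and 1 in each KO list. The RNA level in KO control (37.2 ± 1.2 RPKM) was not below that in WT control (28.5 ± 1.8 RPKM). *Cd40lg* lies on chromosome X, the paper used mice of both sexes, and the sex behind each library is not given.

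The 300 bases around the summits of these 3 sites are shown, since they are DHSs at changed genes whose calls or ranks differed between the lists. They were chosen after their values were seen. All are from the plus strand of mm9. Capitals mark matches to CAGAC (a Smad box, also searched as its complement GTCTG), a STAT6 type motif (TTC and GAA with 4 free bases between them), TTCNNNGAA (a STAT5 type motif) and TGANTCA (an AP-1 type motif), on both strands.
*Icos*, summit in WT TGF-β + IL-4, chr1:61047224-61047523: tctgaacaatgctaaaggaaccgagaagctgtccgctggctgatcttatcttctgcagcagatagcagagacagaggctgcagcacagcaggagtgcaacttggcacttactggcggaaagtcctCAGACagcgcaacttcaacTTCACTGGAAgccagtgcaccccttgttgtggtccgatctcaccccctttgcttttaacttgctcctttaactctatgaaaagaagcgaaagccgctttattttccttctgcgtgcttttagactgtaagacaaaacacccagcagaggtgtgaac
*Tnfsf8*, summit in WT control, chr4:63484200-63484499: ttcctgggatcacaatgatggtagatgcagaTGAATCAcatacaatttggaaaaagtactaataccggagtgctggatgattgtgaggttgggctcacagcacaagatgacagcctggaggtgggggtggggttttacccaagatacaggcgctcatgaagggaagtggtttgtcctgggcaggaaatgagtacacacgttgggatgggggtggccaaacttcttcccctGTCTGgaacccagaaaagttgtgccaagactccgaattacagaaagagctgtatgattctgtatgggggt
*Tnfsf11*, summit in WT control, chr14:78673403-78673702: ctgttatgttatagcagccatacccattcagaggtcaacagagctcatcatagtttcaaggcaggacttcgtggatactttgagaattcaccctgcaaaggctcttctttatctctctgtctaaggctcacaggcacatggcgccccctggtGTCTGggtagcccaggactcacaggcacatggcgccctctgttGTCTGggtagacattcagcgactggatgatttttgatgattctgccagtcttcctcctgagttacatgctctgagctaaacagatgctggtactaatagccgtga

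The *Icos* window holds 1 CAGAC and 1 STAT6 type match, the *Tnfsf8* window 1 CAGAC and 1 TGANTCA match, and the *Tnfsf11* window 2 CAGAC matches. In windows of the same length over all WT DHSs called with both cytokines, 54.5% hold CAGAC and 8.67% hold the STAT6 type motif. In the WT control list 53.0% hold CAGAC and 19.4% hold TGANTCA. A match is a description of the letters and not a binding site. RefSeq promoters, 300 bases around a gene start in GRCm38.p6, were matched for 7 of the 10 genes with 8 starts, of which 4 hold CAGAC and none holds the STAT6 type motif, against 49.6% and 6.95% of all 32851 promoters. The promoters of *Tnfsf8*, *Tnfsf11* and *Tnfrsf4* and that of the upstream start of *Tnfrsf9* hold none of the 4 motifs.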

How the data were processed

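RNA-seq (Smart-seq2) and DNase-seq libraries were processed by the authors, who mapped reads to mm9 with Bowtie2 and discarded poorly mapped and redundant ones. The authors deposited RPKM per gene for 24 RNA-seq libraries, and per-library MACS narrow peaks with a fold enrichment and −log10 q, as deposited. Tool versions are not given in the sources used here. RPKM are not counts, so limma 3.58.1 in R 4.3.3 was fitted to log2(RPKM + 1) of the compared groups only, with a trend on mean level, leaving out genes whose mean RPKM was under 1. Calls required a Benjamini-Hochberg adjusted p below 0.01, adjusted over all genes in the fit, and more than 1.5-fold. Relative depth, from the steps between low RPKM, was 0.80 to 1.66 of WT TGF-β + IL-4 replicate 3, so no library lay far below the rest, and absolute depth is unknown.

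Replicate numbers are taken to name the mouse within a genotype, which the sources do not state. Same-numbered libraries of a genotype would then be paired. The correlations of their deviations from the group means were between −0.30 and 0.55 within a genotype, and a fit with the mouse as a block was an alternative. On the same reading, WT and KO mice of the same number are different animals, and their correlations were between −0.46 and 0.14. For KO against WT the block joined mice by number alone, which is not a pairing of animals. Alternatives were a pseudocount of 0.1, no filter, scaling by median ratios, all 24 libraries in one fit, the block, leaving out each replicate, the columns as headed and the 8 identified libraries alone. For comparisons within WT, leaving out replicate 2 and using the identified libraries alone are the same fit.

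DHSs were compared by at least 1 bp of overlap in Python 3.11.15 (pandas 2.3.3, numpy 2.4.6), with genes from GENCODE vM1 (mm9), and figures were drawn with matplotlib 3.10.9. The 10 genes and all lists were chosen with earlier results of these data known. Named were all 10 genes, up to 3 called genes with the largest change per other list in 4 comparisons, the 3 genes most like each of the 2 most variable members, and *Tgfbr1*. *Il9* and marker genes are given outside this rule, chosen after their values were seen. Lists were other CD28 and B7 family genes, other TNF receptors, other TNF ligands, TRAF and noncanonical NF-κB, CD28 signalling, and markers of T, CD8 T, B, myeloid, NK and regulatory T cells. Values of some genes of these lists are not reported here.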

Additional observations from a re-analysis of the deposited data

Results flagged for a closer look

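These results were singled out because the change with a cytokine differed between WT and KO in a test of that difference, the limma interaction of genotype and culture over 12 libraries. For TGF-β the difference (KO change minus WT change, log2) was 1.35 for *Tnfsf8*, 1.23 for *Tnfsf11*, 0.83 for *Tnfrsf18*, 0.83 for *Tnfrsf9*, 0.83 for *Cd40lg* and 0.66 for *Cd28*. For TGF-β + IL-4 it was 1.15 for *Tnfsf8*, 0.65 for *Tnfrsf9* and −0.77 for *Icos*. All of these terms use KO columns whose culture rests on their position in the table.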

How the results depend on the processing

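With the columns as headed, 0 of the 10 genes were called in every comparison, and 4 called values changed sign: *Icos* to −0.056 for WT TGF-β + IL-4 against IL-4 and to −0.23 for the term of TGF-β with IL-4, *Cd28* to −0.26 for that term, and *Cd27* to 0.13 for KO IL-4 against control. For the WT libraries the read counts bear on the choice of reading; for KO columns the choice was not tested. Of 160 values, 57 that were called under neither setting had another sign with the columns as headed and 4 after scaling by median ratios.

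For WT IL-4 against control the number called was 2 with a pseudocount of 0.1, 2 after scaling by median ratios and 0 without the filter, and 0 to 1 without 1 replicate. It was 2 for WT TGF-β + IL-4 against TGF-β with a pseudocount of 0.1. Without 1 replicate it was 1 to 2 for KO IL-4 against control, 0 to 2 for KO TGF-β + IL-4 against control, 2 to 4 for KO against WT with IL-4, and 0 to 2 for the term of TGF-β with IL-4. For KO TGF-β + IL-4 against control it was 2 with all 24 libraries in one fit and 0 with the replicate block. The causes were not tested. The replicate block lost 3 of 49 calls (*Cd28* in KO TGF-β + IL-4 against control and *Tnfsf11* in KO against WT with medium and with IL-4) and added none, the fit without a filter lost 4, and leaving out replicates lost 15 of 49 calls at least once and kept 34. With 3 mice a group and absolute depth unknown, small differences in these genes may have been missed.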
